A study of Homo sapiens with 12 samples.

Results

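The small nucleolar RNA (snoRNA) host genes of oral keratinocytes were described in untreated and L-Arginine (Arg)-treated cells. The members were the rows of the gene count table whose symbol was SNHG followed by a number, together with GAS5, ZFAS1, EPB41L4A-AS1, and DANCR. This gave 29 rows with 28 symbols (SNHG28 has 2 rows) of 58735 genes in all. Poly(A) RNA was sequenced from TIGK, a single line of human gingival keratinocytes immortalized with hTERT. All groups were kept in medium with 48 mM glucose whose base contained no Arg. The control groups received no Arg and the Arg groups received 500 μM Arg, each for 24 or 48 h, with 3 libraries (A, B, and C) in each of the 4 groups. All come from 1 line, and how far replicates A, B, and C were independent cultures is not given in the sources used here, so the p-values measure only the spread between these libraries, which may be technical.

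Many snoRNAs guide the chemical modification of ribosomal RNA. The C/D class (SNORD) directs ribose methylation and the H/ACA class (SNORA) directs pseudouridylation, and most human snoRNAs are cut out of the introns of a host gene after splicing. Some hosts encode proteins of the ribosome or of translation, and a row of SNHG28 is annotated as protein coding. Others, including most of the genes described here, leave a spliced RNA without a long reading frame. Several of these spliced RNAs are read by ribosomes and removed by nonsense-mediated decay, so that their level depends on translation as well as on transcription. Some also start with a terminal oligopyrimidine (TOP) tract, a C followed by pyrimidines at the first base, which ties translation of ribosomal protein mRNAs to growth signals. DANCR is known for keeping epidermal progenitor cells undifferentiated, and GAS5 for accumulating in cells that stop growing.

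The members held 137 snoRNA rows of the table inside their intervals on the same strand, 84 of them inside SNHG14. Of the 29 member rows, 27 held at least 1 snoRNA row. GAS5 and SNHG27 held none in the annotation of the table, so the totals given here include no snoRNA of GAS5. The C/D RNAs below lie inside SNHG5 and ZFAS1, and the H/ACA RNAs inside SNHG8 and DANCR, and they show what these hosts carry in addition to the spliced RNA that was counted. They are reference sequences of hg38, written 5′ to 3′. Capitals mark the first TGATGA and the last CTGA (the C and D boxes) in the SNORD sequences, and ACA before the last 3 bases in the SNORA sequences.
SNORD50B in SNHG5, chr6:85677589-85677658, minus strand: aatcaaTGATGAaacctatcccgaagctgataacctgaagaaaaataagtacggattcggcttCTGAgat
SNORD12B in ZFAS1, chr20:49280319-49280409, plus strand: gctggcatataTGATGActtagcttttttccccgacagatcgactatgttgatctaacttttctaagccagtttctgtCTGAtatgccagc
SNORD12C in ZFAS1, chr20:49278940-49279028, plus strand: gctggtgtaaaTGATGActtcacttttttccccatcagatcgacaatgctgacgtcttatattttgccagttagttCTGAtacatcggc
SNORA24 in SNHG8, chr4:118279190-118279320, plus strand: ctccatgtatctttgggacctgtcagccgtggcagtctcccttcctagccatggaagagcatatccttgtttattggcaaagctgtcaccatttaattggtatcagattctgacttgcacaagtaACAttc
SNORA26 in DANCR, chr4:52713249-52713370, plus strand: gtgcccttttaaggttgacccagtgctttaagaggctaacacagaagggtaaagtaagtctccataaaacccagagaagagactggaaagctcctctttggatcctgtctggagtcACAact

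Searched on the strand of the RNA, TGATGA followed by CTGA was found in 87 of the 102 SNORD rows inside members (85.3%), in 76.3% of the 278 SNORD rows of the whole table, and in 0.68% of its 147 SNORA rows. ACA before the last 3 bases was found in 13 of the 23 SNORA rows inside members (56.5%) and in 75.5% of all SNORA rows. The poly(A) libraries held few reads of these small RNAs. Over all 12 libraries, the 137 rows had 895 counts and 110 of them had none, against 155663 counts of the members. SNORA73B in SNHG3 had 290 counts and SNORD12B in ZFAS1 had 65, whereas SNORD50B in SNHG5 and SNORA24 in SNHG8 had 0. A count of 0 in such libraries does not show that a snoRNA was absent, and the results below are on the spliced hosts only.

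Start sites from RefSeq (GRCh38.p14) were found for 24 of the 28 symbols and are shown for 6 abundant members, because TOP starts are part of what is known of this family. Each window of 70 bases begins 20 bases before the RefSeq start. Capitals begin at the start base and cover a run of C followed by at least 4 pyrimidines (C or T), and otherwise mark the start base alone.
SNHG5, chr6:85678684-85678753, minus strand: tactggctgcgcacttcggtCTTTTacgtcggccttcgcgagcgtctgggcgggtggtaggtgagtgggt
ZFAS1, chr20:49278622-49278691, plus strand: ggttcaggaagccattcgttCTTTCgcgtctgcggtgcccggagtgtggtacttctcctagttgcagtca
SNHG8, chr4:118278742-118278811, plus strand: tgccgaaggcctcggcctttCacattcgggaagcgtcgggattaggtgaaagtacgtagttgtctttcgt
DANCR, chr4:52712374-52712443, plus strand: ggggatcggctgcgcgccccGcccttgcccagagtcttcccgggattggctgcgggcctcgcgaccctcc
SNHG1, chr11:62855836-62855905, minus strand: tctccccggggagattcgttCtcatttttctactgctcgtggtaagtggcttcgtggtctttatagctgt
SNHG3, chr1:28505923-28505992, plus strand: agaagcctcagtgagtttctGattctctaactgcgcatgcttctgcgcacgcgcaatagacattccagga

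A run of at least 5 pyrimidines opening with C stood at the RefSeq start of 6 of 24 members (25.0%), namely SNHG4, SNHG5, SNHG12, SNHG18, SNHG19, and ZFAS1. The same letters stood at 60.3% of 78 ribosomal protein starts and at 4.07% of the 35116 starts of the table. Allowing the run to begin up to 5 bases to either side gave 11 members (45.8%), among them DANCR, SNHG8, and SNHG16, against 21.1% of all starts. GAS5, whose window is not shown, had no such run at its RefSeq start or within 5 bases of it, nor had SNHG1 and SNHG3. RefSeq and the deposited table do not always place the start alike, with a distance of 163 bases for GAS5, 464 for ZFAS1, 1259 for SNHG12, 1927 for SNHG20, 154975 for SNHG14, and 15 for SNHG5. No RefSeq window was used for SNHG6, SNHG9, SNHG15, and SNHG25.

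The libraries held between 16542243 and 19040964 counts, and the members took between 0.0580% and 0.0907% of them. All 6 keratinocyte markers were detected in every library, with a summed level between 31250 and 43320 CPM (counts scaled to the size of the library), most of it KRT5 and KRT14. Of the 6 fibroblast markers, DCN and COL1A1 carried nearly all of a summed level of 29.7 to 54.1 CPM at 24 h and 73.9 to 104.8 CPM at 48 h, with COL1A2 at 0 in 10 libraries and never above 0.0585 CPM. Melanocyte markers summed to at most 3.13 CPM with TYR at 0, immune cell markers to at most 0.441 CPM, and endothelial markers to at most 2.17 CPM. Replicate B of the 48 h control stood apart from its group, with 1.55% of its counts in mitochondrially encoded genes against 0.906% in A and 0.707% in C, and its results are given with and without it. Some members share exonic bases with another gene of GENCODE v44 inside the table's interval. The strand setting of the counting is not given in the sources used here, so their counts are uncertain. The shared part was 30.3% for SNHG7 (with FAM69B), 26.0% for SNHG6 (with MCMDC2), 11.7% for SNHG10 (with GLRX5), 7.56% for SNHG20 (with SEC14L1), 5.92% for SNHG3 (with RCC1), 5.59% for ZFAS1 (with ZNFX1), 3.97% for DANCR (with AC104066.1), and 0% for GAS5 with ZBTB37. These shares of bases do not bound the shares of counts. Over all libraries, RCC1 had 47522 counts against 4759 for SNHG3, and GLRX5 had 13287 against 547 for SNHG10. SEC14L1 had 11783 against 386 for SNHG20, whereas MCMDC2 had 431 against 17942 for SNHG6. The exons of GENCODE v44 also differ from those counted, with 6828 against 2285 bases for DANCR. SEC14L1 was at -0.53 ± 0.095 for Arg at 24 h (adjusted p = 0.00265 by edgeR).

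The host genes covered a wide range of levels in TIGK cells (the plot of levels per kilobase). Levels between genes were compared as CPM after TMM normalization (edgeR's scaling between libraries) divided by the exonic length in kilobases. SNHG6, the host of SNORD87, had the highest mean over the 12 libraries, at 66.2 CPM per kb. SNHG5 (34.4), GAS5 (30.4), SNHG1 (26.5), SNHG8 (21.5), DANCR (20.3), ZFAS1 (17.8), and SNHG16 (10.9) followed. The order among neighbours was not fixed in every library: SNHG5 ranged from 22.4 to 55.1 and GAS5 from 19.4 to 45.4 CPM per kb, which overlap nearly fully, whereas the lowest SNHG6 value (54.7) was just under the highest SNHG5 value. SNHG19, SNHG17, SNHG15, SNHG3, SNHG7, and SNHG11 lay between 3.84 and 7.61 CPM per kb, and SNHG18, EPB41L4A-AS1, SNHG4, SNHG26, SNHG9, SNHG12, and SNHG10 between 1.30 and 2.52. SNHG14 had 15.4 CPM but only 0.356 CPM per kb, because its exonic length in the table is 43324 bases. At the low end, SNHG20 was at 0.292 CPM per kb. SNHG21 had 94 counts over all libraries, SNHG25 had 24, SNHG28 had 8 and 0 in its 2 rows, SNHG22 had 6, and SNHG27 had 0. Of the 29 rows, 23 passed edgeR's filter on low counts in each comparison of 2 groups, and 6 did not.

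**Figure D1:**
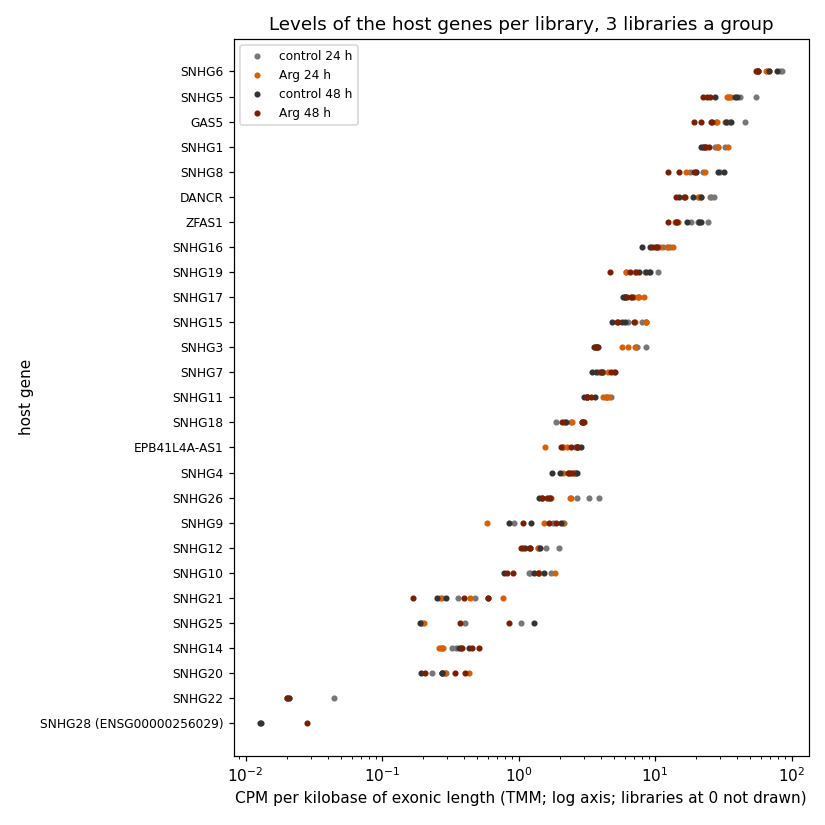
TMM-normalized CPM per kilobase of exonic length (log axis) of the 27 host gene rows with a count, 1 point per library and a colour per group. SNHG6 stands at the top with a mean of 66.2 and SNHG20 has a mean of 0.292, and libraries at 0 are not drawn.

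The first comparison asked how the hosts differed between Arg-treated and untreated cells at 24 h. GAS5 and DANCR were downregulated modestly, and no member was upregulated past the test. GAS5 stood at 122, 129, and 165 CPM in control libraries A, B, and C and at 117, 102, and 103 CPM with Arg. DANCR stood at 58.7, 61.9, and 57.6 CPM in the control and at 49.2, 47.9, and 47.0 CPM with Arg. For both genes every Arg library was below every control library, with a wider gap for DANCR than for GAS5, whose Arg replicate A lay close to control replicate A. The log2 fold change was -0.37 ± 0.11 (SE, n = 3 against 3) for GAS5, a ratio of 0.775, with an adjusted p of 0.0452 by edgeR's quasi-likelihood test, and -0.31 ± 0.09 for DANCR, a ratio of 0.808, with an adjusted p of 0.0419. These 2 of 23 tested members compare with 3.84% of all 14279 tested genes called lower (2.79% were called higher). Both calls lie near the threshold. Without control replicate C, Arg replicate B, or Arg replicate C, no member was called, beside 1.95%, 1.73%, and 1.67% of all genes called lower. Without control replicate B, 5 were called, beside 6.02% of all genes called lower in that fit. GAS5 was called in 3 of the 6 fits that left out a library (highest adjusted p 0.254 by edgeR) and in 8 of 9 other settings (highest 0.0832). DANCR was called in 1 of these 6, that without Arg replicate A (highest 0.166), and in 4 of the 9 (highest 0.112). In a single model of all 12 libraries 0 were called, beside 3.51% of all genes called lower.

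SNHG5, SNHG6, and ZFAS1 had values of like size at 24 h that did not pass the test over all genes. SNHG5 was at 118, 97.3, and 155 CPM in the control and 101, 95.6, and 93.6 CPM with Arg (log2 fold change -0.35 ± 0.12, adjusted p = 0.0962 by edgeR). SNHG6 was at 107, 82.1, and 103 CPM against 84.7, 70.6, and 81.1 CPM (-0.31 ± 0.11, adjusted p = 0.0886 by edgeR). ZFAS1, which is transcribed divergently from ZNFX1, was at 46.2, 41.3, and 54.3 CPM against 46.8, 31.6, and 33.2 CPM (-0.35 ± 0.14, adjusted p = 0.134 by edgeR). In each of these the groups overlapped, through replicate B of the control or replicate A of the Arg group. SNHG8 was at 20.7, 16.7, and 27.6 CPM against 21.3, 18.3, and 15.6 CPM, with a log2 fold change of -0.24 ± 0.16. SNHG26, the host of SNORD93, had the lowest log2 fold change of the members, at -0.60 ± 0.20, with 10.2, 7.06, and 8.69 CPM in the control and 6.29, 6.35, and 4.51 CPM with Arg, and an adjusted p of 0.0810 by edgeR. Its groups did not overlap, as for SNHG3, SNHG4, GAS5, and DANCR, so that 5 of 23 members were lower in every Arg library than in any control library. The background for that count was 13.4% of all tested genes. At an unadjusted p under 0.05, 7 members were lower and 0 higher, beside 11.9% and 10.8% of all genes. The median log2 fold change of the 23 members was -0.21, beside 0.00 for all tested genes, and 15 of the 23 were below 0, beside 49.5%.

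Not every abundant host was lower at 24 h. SNHG1, the host of SNORD22 and SNORD25 to SNORD28, was at 106, 103.6, and 121 CPM in the control and at 127.6, 108.6, and 108 CPM with Arg (log2 fold change 0.05 ± 0.09). SNHG16, the host of the SNORD1 family, was at 66.5, 61.2, and 69.5 CPM against 73.2, 66.1, and 58.5 CPM (0.00 ± 0.10). For both, the libraries of the groups were interleaved. SNHG17, the host of the SNORA71 family, was at 31.6, 25.2, and 29.5 CPM in the control and at 31.6, 34.6, and 32.1 CPM with Arg, where the lowest Arg library was just above the highest control library, and its log2 fold change of 0.18 ± 0.11 had an adjusted p of 0.325 by edgeR. SNHG17 was the 1 member higher without overlap, beside 12.9% of all genes. The share of mitochondrially encoded genes also separated these groups, at 1.20% to 1.30% of the counts in the control and 0.624% to 0.802% with Arg, and its part in the result was not tested. DCN, 1 of the 4 tested fibroblast markers, was lower with Arg, at 21.2, 38.8, and 33.1 CPM in the control and 18.1, 15, and 24.2 CPM with Arg (-0.70 ± 0.18, adjusted p = 0.0294 by edgeR), and 0 of the 6 keratinocyte markers passed. The part of other cells in the result was not tested. In bulk RNA, a smaller share of cells with a transcript and less of it per cell cannot be told apart.

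**Figure D2:**
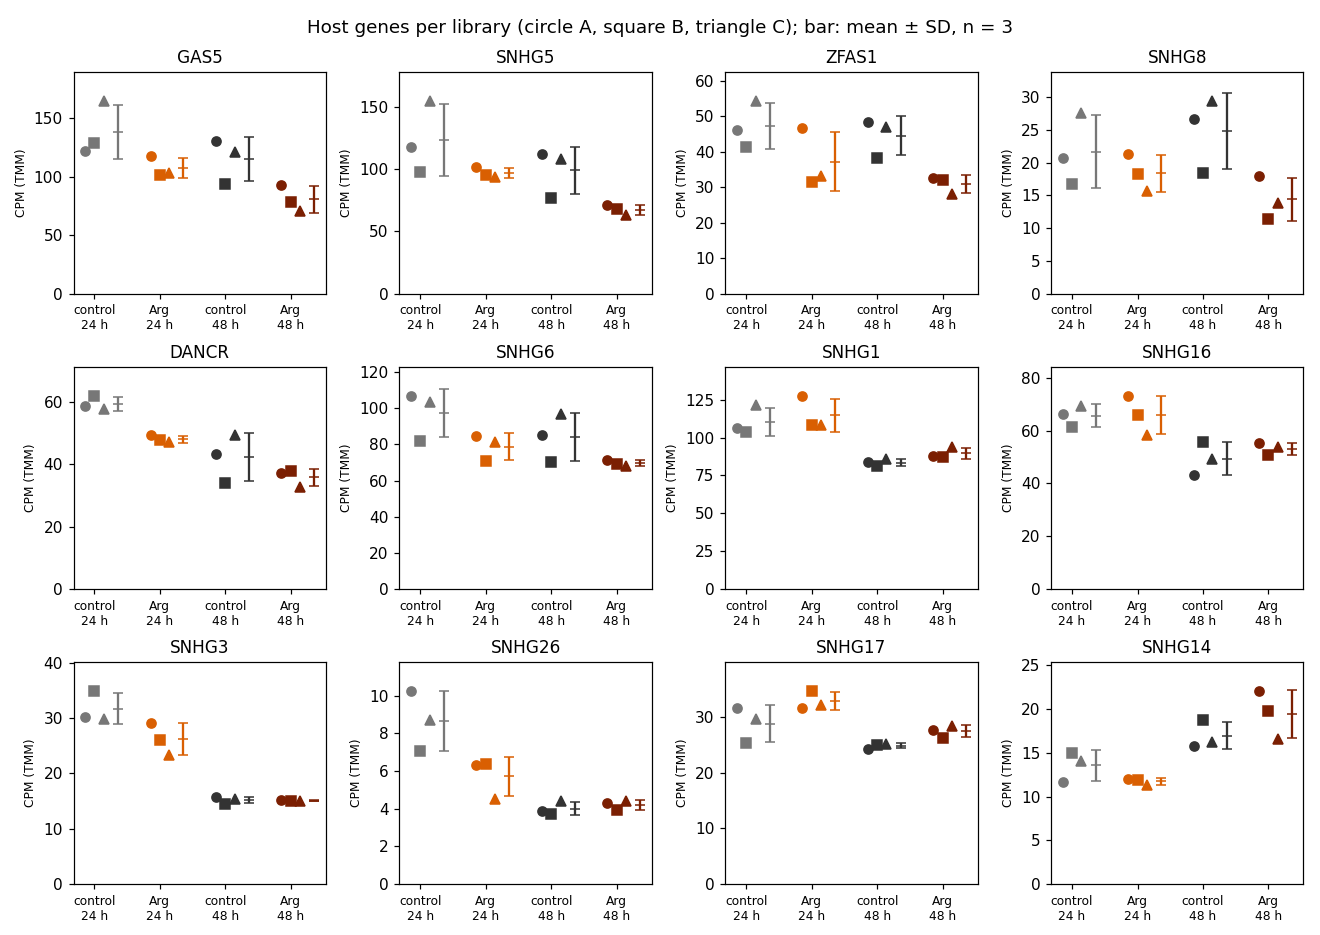
TMM-normalized CPM of 12 host genes in each library, with axes from 0, a panel per gene, and marks for replicates A, B, and C. Bars give the mean ± SD of 3 libraries. DANCR with Arg at 24 h lies between 47.0 and 49.2, under all control libraries of that time, and SNHG3 lies between 14.5 and 15.7 in all 6 libraries at 48 h.

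At 48 h, the same question was asked of separate libraries. With all 6 of them, 0 of 23 members were called by edgeR, where 17 of 14562 genes were called, all lower (0.117%). SNHG5 was at 112, 76.9, and 108 CPM in the control and at 71.1, 67.9, and 62.9 CPM with Arg. GAS5 was at 131, 94.2, and 121 CPM against 93.2, 78.3, and 70.5 CPM. ZFAS1 was at 48.5, 38.1, and 47.1 CPM against 32.7, 32.0, and 28.0 CPM. In all of these the Arg libraries were below the control libraries, and control replicate B was the control library nearest to them. SNHG8 followed with 26.7, 18.4, and 29.4 CPM against 17.9, 11.4, and 13.8 CPM, also without overlap. On the log2 scale, SNHG5 differed by -0.56 ± 0.12 (ratio 0.680), GAS5 by -0.52 ± 0.12 (0.699), ZFAS1 by -0.53 ± 0.11 (0.693), and SNHG8 by -0.79 ± 0.19 (0.580). Their adjusted p-values by edgeR lay between 0.118 and 0.146.

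DANCR, which passed the test at 24 h, was at 43.3, 34.0, and 49.4 CPM in the 48 h control and at 37.1, 37.8, and 32.8 CPM with Arg, where replicate B of the control was lower than 2 Arg libraries (log2 fold change -0.24 ± 0.12, adjusted p = 0.427 by edgeR). SNHG6 was at 85.5, 70.2, and 96.9 CPM against 71.3, 69.3, and 68.2 CPM, again overlapping only through control replicate B (-0.28 ± 0.10, adjusted p = 0.268 by edgeR). SNHG19, a short host at 2.94, 3.16, and 2.63 CPM in the control, was at 2.24, 1.61, and 2.48 CPM with Arg, with -0.46 ± 0.28. It had been at 3.58, 2.09, and 3.07 CPM in the 24 h control and 2.08, 2.45, and 2.90 CPM with Arg, where the groups overlapped. SNHG1 was at 83.8, 81.1, and 85.7 CPM in the 48 h control and slightly higher with Arg, at 88.0, 87.4, and 93.8 CPM (0.10 ± 0.07). SNHG17 was at 24.3, 25.0, and 25.1 CPM against 27.7, 26.3, and 28.3 CPM (0.14 ± 0.09). SNHG7, the host of SNORA17A and SNORA17B, had the highest positive value with an unadjusted p under 0.05, at 16.0, 15.0, and 17.6 CPM against 22.1, 20.8, and 17.6 CPM (0.31 ± 0.13, adjusted p = 0.310 by edgeR). Its reads may be shared with FAM69B, which lies on the opposite strand. In all, 5 members were lower and 2 higher without overlap, beside 8.51% and 8.56% of all genes, and 5 were lower and 1 higher at an unadjusted p under 0.05, beside 7.49% and 5.94%. The median of the members was -0.02 beside 0.00 for all genes, so the lower values belonged to part of the list, and 13 of 23 were below 0, beside 49.7%.

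**Figure D3:**
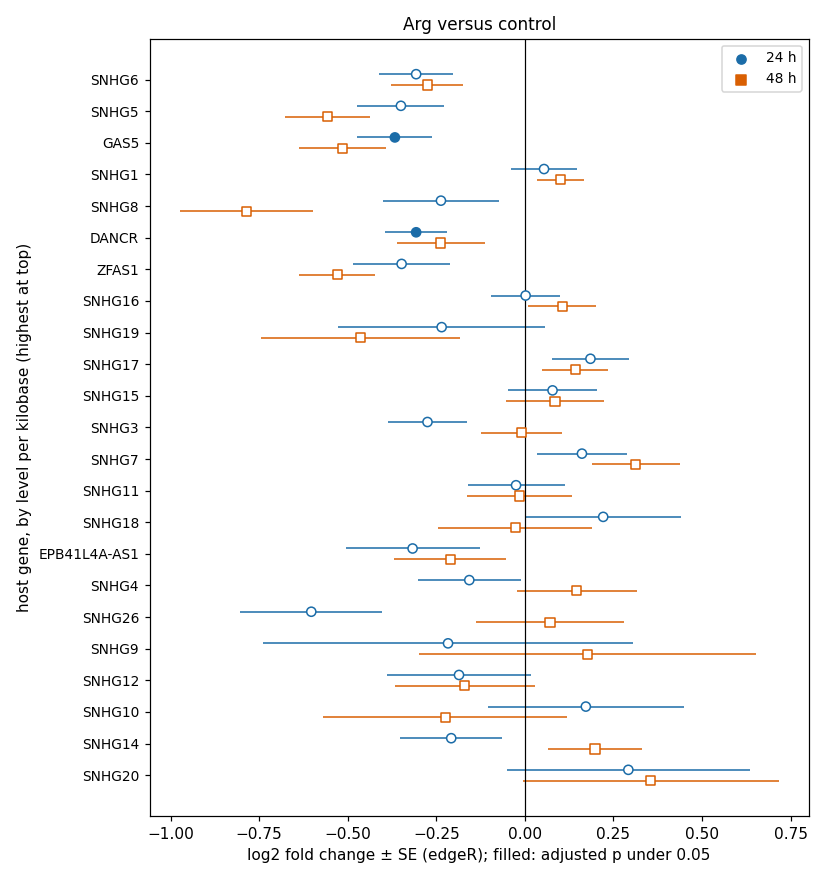
Log2 fold change ± SE (edgeR) of Arg versus control for the 23 tested host genes, at 24 h (circles) and 48 h (squares), with filled marks at an adjusted p under 0.05. Only GAS5 and DANCR at 24 h are filled, and SNHG8 at 48 h lies farthest to the left at -0.79.

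Without replicate B of the 48 h control, 6 of the 24 members then tested were called lower at 48 h and none higher. The background rose as well, to 8.17% of 14854 genes called lower and 7.76% called higher. SNHG5 then had a log2 fold change of -0.71 ± 0.07 (adjusted p = 1.76e-07 by edgeR with 2 control and 3 Arg libraries), GAS5 -0.64 ± 0.09 (1.37e-05), ZFAS1 -0.63 ± 0.09 (3.31e-05), SNHG8 -0.96 ± 0.14 (3.51e-05), SNHG6 -0.39 ± 0.07 (0.000505), and DANCR -0.37 ± 0.09 (0.00644). These are 6 of the 7 members with the highest level per kilobase, and SNHG1, the remaining one, was at 0.08 ± 0.07. Each of the 6 had the same sign with all libraries, and the plot of both fits shows that their values moved away from 0 and that their SEs became smaller. Replicate B was the lowest control library for each of these genes, and the fits share all other libraries. The shared sign and the shift are therefore not separate support. Leaving out any other single library of the comparison called 0 members, beside at most 0.0669% of all genes called lower. Once replicate B was left out, the share of mitochondrially encoded genes separated the groups, at 0.707% and 0.906% in the control and 1.14% to 1.31% with Arg, and its part in the result was not tested. DESeq2 on all 6 libraries called 4 members (SNHG5, ZFAS1, GAS5, and SNHG8), beside 1.07% of all genes with an adjusted p called lower. Not all of the 27 members with a count had an adjusted p there, and SNHG20 and SNHG9 had none. EdgeR without a filter on low counts called the same 4 of 27, beside 1.37% of all genes called lower.

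**Figure D4:**
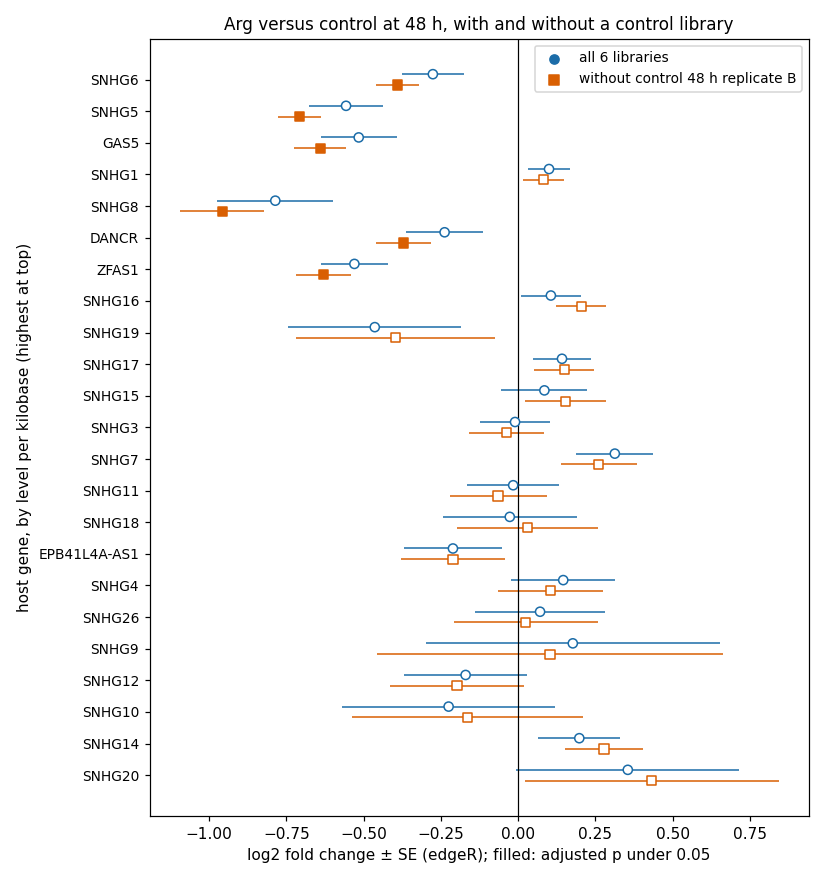
Log2 fold change ± SE (edgeR) of Arg versus control at 48 h for 23 host genes, with all 6 libraries (circles) and without control replicate B (squares), filled at an adjusted p under 0.05. The 6 filled squares are SNHG6, SNHG5, GAS5, SNHG8, DANCR, and ZFAS1, and no circle is filled.

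The Arg effects at the 2 times come from separate control and Arg libraries. Of the 23 members tested at both, 11 were below 0 at both times (47.8%) and 6 above 0 at both (26.1%), where 33.5% and 34.1% of 13996 genes were. SNHG6, SNHG5, GAS5, SNHG8, DANCR, and ZFAS1 were all among the former, and SNHG1 among the latter. The difference between the Arg effects was tested as an interaction over all 12 libraries. No member passed with edgeR, where 2 of 15148 genes did (0.0132%). With DESeq2 no member passed either, where 6 of 10730 genes were called lower and 9 higher. At an unadjusted p under 0.05, SNHG26 (0.68 ± 0.28) and SNHG14 (0.41 ± 0.19) were higher, as were 3.06% of all genes, and their adjusted p-values by edgeR were 0.668 and 0.712. SNHG26 went from -0.60 at 24 h to 0.07 at 48 h, and SNHG14 from -0.21 to 0.20. The interaction was -0.21 ± 0.19 for SNHG5, -0.15 ± 0.18 for GAS5, -0.18 ± 0.19 for ZFAS1, -0.55 ± 0.27 for SNHG8, and 0.07 ± 0.15 for DANCR, so a larger effect at 48 h was not shown for any of them.

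The comparison of 48 h with 24 h gave the largest differences in the family. SNHG3, the host of SNORA73A and SNORA73B, was downregulated with time to 0.480 of its 24 h level in control cells and 0.577 in Arg-treated cells. It stood at 30.2, 34.8, and 29.8 CPM in the 24 h control, at 15.7, 14.5, and 15.3 CPM in the 48 h control, at 29.1, 26.1, and 23.4 CPM with Arg at 24 h, and at 15.2, 15.1, and 15.0 CPM with Arg at 48 h. All libraries at 48 h lay between 14.5 and 15.7 CPM, and none at 24 h was under 23.4 CPM. The log2 fold change was -1.06 ± 0.11 in control (adjusted p = 0.000558 by edgeR) and -0.79 ± 0.11 with Arg (adjusted p = 3.2e-05 by edgeR). RCC1, whose exons overlap it on the same strand, changed less, by -0.35 ± 0.09 and -0.26 ± 0.07. SNHG26 was at 10.2, 7.06, and 8.69 CPM in the 24 h control and at 3.88, 3.73, and 4.40 CPM at 48 h, a ratio of 0.463 (-1.11 ± 0.20, adjusted p = 0.00445 by edgeR). With Arg it was at 6.29, 6.35, and 4.51 CPM at 24 h and at 4.28, 3.93, and 4.43 CPM at 48 h (-0.44 ± 0.21, adjusted p = 0.133 by edgeR), lower without overlap but not past the test. Whether it changed less with Arg is the interaction given above, which did not pass over all genes.

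In control cells, 7 of 23 members were downregulated from 24 to 48 h and 0 upregulated, beside 10% of 14449 genes called lower and 9.90% called higher. In Arg-treated cells, 9 were downregulated and 1 upregulated, beside 14.0% and 14.3% of 14398 genes. SNHG1 was among both, at 106, 103.6, and 121 CPM against 83.8, 81.1, and 85.7 CPM in control (-0.40 ± 0.08, adjusted p = 0.00799 by edgeR) and at 127.6, 108.6, and 108 CPM against 88.0, 87.4, and 93.8 CPM with Arg (-0.35 ± 0.08, adjusted p = 0.00216 by edgeR). All its 48 h libraries were below all its 24 h libraries. DANCR had a ratio of 0.713 in control (-0.49 ± 0.12) and 0.748 with Arg (-0.42 ± 0.09), from the CPM values given above. SNHG16 was at 43.1, 55.7, and 49.3 CPM in the 48 h control and at 55.2, 50.7, and 53.8 CPM with Arg at 48 h, under the 24 h libraries of its group in both cases, with -0.41 ± 0.10 and -0.31 ± 0.09.

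SNHG15, the host of SNORA9, was at 29.1, 23.0, and 31.5 CPM in the 24 h control against 20.8, 22.0, and 17.7 CPM at 48 h, and at 31.4, 31.2, and 25.8 CPM against 25.7, 19.1, and 19.5 CPM with Arg. Its log2 fold changes were -0.46 ± 0.14 and -0.45 ± 0.12. SNHG11, which holds SNORA60 and SNORA71E, was at 13.3, 12.3, and 12.2 CPM against 8.87, 8.51, and 10.1 CPM in control and at 12.5, 11.7, and 13.0 CPM against 9.49, 8.87, and 8.87 CPM with Arg. SNHG11 differed by -0.45 ± 0.15 in control (adjusted p = 0.0465 by edgeR) and -0.45 ± 0.14 with Arg (0.0221). Both genes were lower at 48 h without overlap in either medium.

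GAS5, SNHG5, and SNHG17 passed the test only in Arg-treated cells, at -0.41 ± 0.09, -0.52 ± 0.08, and -0.26 ± 0.09. In control cells they were at -0.26 ± 0.13, -0.32 ± 0.16, and -0.21 ± 0.11, and the interaction test above did not separate the media for any of them. SNHG14 was the 1 member upregulated, in Arg-treated cells, from 12, 11.9, and 11.3 CPM at 24 h to 22.1, 19.8, and 16.6 CPM at 48 h (0.73 ± 0.13, ratio 1.66, adjusted p = 0.000339 by edgeR). SNHG14 is the long imprinted host of the SNORD115 and SNORD116 clusters and runs antisense to UBE3A. In control cells it was at 11.6, 15.0, and 14.0 CPM and then at 15.8, 18.7, and 16.3 CPM, also without overlap (0.33 ± 0.14, adjusted p = 0.124 by edgeR). UBE3A, on the opposite strand, was at -0.11 ± 0.08 in control and 0.03 ± 0.08 with Arg.

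**Figure D5:**
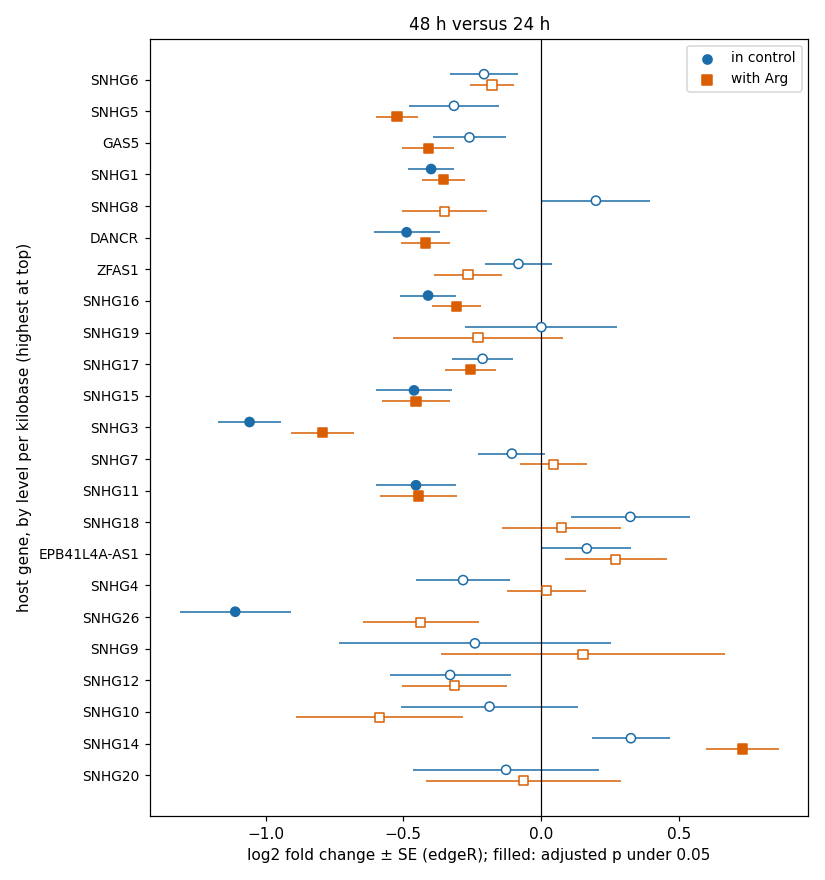
Log2 fold change ± SE (edgeR) of 48 h versus 24 h for the 23 tested host genes, in control (circles) and in Arg-treated cells (squares), filled at an adjusted p under 0.05. SNHG26 and SNHG3 in control lie farthest to the left at -1.11 and -1.06, and SNHG14 with Arg is the only filled mark to the right of 0.

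ZFAS1, SNHG8, and SNHG6 did not pass the test over time in either medium. ZFAS1 and SNHG8 were at -0.08 ± 0.12 and 0.20 ± 0.19 in control and at -0.27 ± 0.12 and -0.35 ± 0.15 with Arg. SNHG6 was at -0.21 ± 0.13 in control and -0.18 ± 0.08 with Arg. Counted without overlap, 8 members were lower and 1 higher in control, beside 19.7% and 19.2% of all genes, and 12 lower and 1 higher with Arg, beside 21.2% and 21.1%. The median of the 23 members was -0.24 in control, beside 0.01 for all genes, and -0.31 with Arg, beside 0.00. The time comparisons in the 2 media share no library, and 15 of 23 members were below 0 in both (65.2%) and 3 above 0 in both (13.0%), where 38.1% and 39.5% of 14057 genes were. Over the same interval, 2 of the 4 tested fibroblast markers (DCN and COL1A1) rose in both media and 0 fell, DCN by 1.08 ± 0.17 in control and 1.61 ± 0.16 with Arg on the log2 scale. Of the 6 keratinocyte markers, 3 rose in control and 4 with Arg, and 0 fell. With Arg, the share of mitochondrially encoded genes also separated the times, at 0.624% to 0.802% at 24 h and 1.14% to 1.31% at 48 h. The part of other cells and of this share in the decrease of the hosts was not tested.

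Leaving out single libraries changed part of the time results. In control, SNHG3, SNHG26, and SNHG1 were called in all 6 fits that left out a library. DANCR was lost without control 24 h replicate A or C (highest adjusted p 0.0648 by edgeR), SNHG16 without control 24 h A or C or 48 h A (0.0828), and SNHG15 without these or 48 h C (0.152). SNHG11 was lost in each of the 6 (0.158). The number called was 3 without control 24 h A or C, 4 without 48 h A, and 6 without 48 h B. The share of all genes called lower, 10% with all libraries, was 2.74% without 24 h A and 3.36% without 24 h C. It was 6.22% without 48 h A and 8.60% without 48 h B. With Arg, SNHG3, SNHG5, SNHG1, GAS5, DANCR, and SNHG14 were called in all 6 fits. The total was lowest, at 6 (5 lower and 1 higher), without Arg 48 h replicate B. In that fit 9.31% of all genes were called lower, beside 14.0% with all libraries. SNHG16 was lost without Arg 24 h A or 48 h B (0.0812), SNHG15 without 48 h B or C (0.0586), SNHG11 without 24 h C or 48 h B or C (0.0740), and SNHG17 in every fit but that without 24 h A (0.174).

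The less abundant hosts did not pass the test for Arg. EPB41L4A-AS1, the host of SNORA13, was between 5.27 and 9.54 CPM, at -0.32 ± 0.19 and -0.21 ± 0.16 for Arg at 24 and 48 h, and was slightly higher at 48 h in both media (0.17 ± 0.16 and 0.27 ± 0.18), none past the test. SNHG12, the host of SNORD99 and several SNORA RNAs, was between 4.47 and 8.40 CPM and at -0.19 ± 0.20 and -0.17 ± 0.20 for Arg. SNHG4 was at -0.16 ± 0.15 and 0.15 ± 0.17, SNHG18 at 0.22 ± 0.22 and -0.03 ± 0.22, SNHG10 at 0.17 ± 0.28 and -0.22 ± 0.34, SNHG20 at 0.29 ± 0.34 and 0.35 ± 0.36, and SNHG9 at -0.22 ± 0.52 and 0.18 ± 0.48. For the last 5, each SE was larger than or close to its value.

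The proteins that build snoRNPs were set beside the hosts, and their counts stand beside the shares of all genes given above for Arg (3.84% lower and 2.79% higher at 24 h, 0.117% lower at 48 h) and for time (10% lower and 9.90% higher in control, 14.0% and 14.3% with Arg). Of 8 core snoRNP proteins, 0 passed the test for Arg at either time, with medians of 0.06 and 0.02. Over time, 3 were lower in control (median -0.27) and 6 with Arg (median -0.30), with none higher, among them DKC1, the pseudouridine synthase (-0.41 ± 0.08 and -0.39 ± 0.07), and FBL, the methyltransferase of C/D snoRNPs (-0.31 ± 0.08 and -0.31 ± 0.06). Of 9 assembly factors, 0 passed for Arg, and 3 were lower in each time comparison, with RUVBL1 at -0.41 ± 0.12 in control and -0.53 ± 0.07 with Arg. Protein-coding genes that hold a snoRNA in the table, leaving out ribosomal proteins, numbered 135, of which 119 or 120 were tested. For Arg at 24 h, 6 were higher and 2 lower with a median of 0.03, against -0.21 for the hosts described here, and at 48 h 0 passed in either direction with a median of 0.03. Among them, EIF5, a translation initiation factor, was at 0.39 ± 0.08 and POR at -0.32 ± 0.09 at 24 h. Over time, 11 were higher (9.17%) and 23 lower (19.2%) in control and 18 higher (15.1%) and 31 lower (26.1%) with Arg, with medians of -0.05 and -0.06. HSPA8, a constitutive chaperone, was at -1.15 ± 0.08 and -1.24 ± 0.07 on the log2 scale.

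Genes tied to the translation and decay of such RNAs were described in the same way, beside the same shares of all genes. The 79 cytosolic ribosomal proteins, whose mRNAs carry TOP starts, had medians of -0.17 for Arg at 24 h and -0.19 at 48 h, with 4 (5.06%) and 5 (6.33%) called lower and 0 higher. RPS15A was at -0.63 ± 0.17 and -0.82 ± 0.06, and RPS27 at -0.35 ± 0.09 and -0.48 ± 0.07. Over time, 9 were lower in control (11.4%, beside 10% of all genes) and 28 with Arg (35.4%, beside 14.0%), and 0 higher. Of 15 tested translation factors with TOP mRNAs, 1 was lower for Arg at 24 h (NAP1L1, -0.40 ± 0.07), 0 passed at 48 h, 4 were lower over time in control, and 6 were lower and 1 higher with Arg. Of 10 nonsense-mediated decay factors, SMG5 alone passed for Arg, at 24 h, where it was higher (0.27 ± 0.08), 0 passed at 48 h, and medians were 0.20 and 0.12. Over time, 1 decay factor was higher in control (UPF3B, 0.57 ± 0.15), and 2 were higher and 2 lower with Arg. Of 10 regulators of TOP translation, MLST8, a subunit of mTOR complexes, was lower for Arg at 24 h (-0.31 ± 0.08), 0 passed at 48 h, 3 were lower over time in control, and 1 was higher and 2 lower with Arg.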

How the data were processed

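Poly(A) RNA of 12 TIGK libraries was used. The authors filtered paired-end reads with fastp, aligned them with STAR (GRCh38/hg38), and obtained gene counts by featureCounts, and the deposited values are raw counts per gene, with coordinates and exonic lengths. Tool versions, annotation release, and strand setting are not given in the sources used here. Groups were taken from the labels.

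The members and gene lists were chosen with earlier results of these data known. Counts were fitted over all genes with edgeR 4.0.16 (R 4.3.3): TMM normalization, filterByExpr, and the quasi-likelihood test on the libraries of the groups compared, with Benjamini–Hochberg adjustment over all tested genes and calls at an adjusted p under 0.05. The SE is the absolute log2 fold change divided by the square root of F. The interaction used all 12 libraries. Levels are CPM scaled by TMM factors of all 12 libraries.

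All tested members are named. Values per library are given for members called in any comparison and for the 10 with the highest CPM per kilobase, and were added for SNHG7, which was chosen after its values were seen. From other lists, at most 4 called genes per direction with the smallest p could be named. Genes sharing exonic bases with a member were named for the members given in the text, with test values for RCC1, SEC14L1, and UBE3A. Alternatives were DESeq2 1.42.0, its size factors, library size only, no filter, a minimum of 10 counts per library, 1 model of all 12 libraries, a block for the replicate letter, a lowess correction for exonic length (span 0.3, prior count 2) with and without the block, and leaving out each library. The fitting was tested on simulated data. The SE and SD values include the spread between libraries. A zero means only that no read was counted. With 16542243 to 19040964 counts a library, some members had few counts, and totals are given for those not tested.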

Additional observations from a re-analysis of the deposited data

How the results depend on the processing

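For Arg at 24 h, where 2 members were called, 1 was called with library size only (3.73% of all genes called lower) and with the replicate block (3.82%). With the length trend removed, 1 was called without the block (4.29%) and 1 with it (3.9%). Without the filter on low counts 6 were called (2.86% of all genes called lower), and with all 12 libraries in a single model 0 (3.51%). Leaving out single libraries gave 0 to 5. For Arg at 48 h, where 0 were called, 4 were called with DESeq2, without the filter, with the replicate block, and with the length trend removed with the replicate block (0.968% and 0.680% of all genes called lower in the fits with the block), and leaving out single libraries gave 0 to 6. Over time, 7 were called in control (3 to 6 with a library left out) and 10 with Arg (6 to 11). The other settings stayed within 1.5 times these counts, but not every single call over time held. Of the 9 settings that left out no library, SNHG17 with Arg was called in 2, and SNHG11 in 4 in control and 7 with Arg. SNHG15 in control and SNHG14 with Arg were called in 8. The other calls over time held in all 9. With a library left out, 1.59% to 6.02% of all genes were called lower for Arg at 24 h. At 48 h the share was 0.0336% to 8.17%, and over time it was 2.74% to 11.6% in control and 9.31% to 12.9% with Arg. The interaction called 0 under every setting run. The cause of these changes was not tested, except that fits without a library hold fewer samples. Of 1854 values of single members under alternatives, 83 changed sign, in each case a value not called in either fit and within its SE in at least 1 of them, 57 lost a call, and 40 gained one. The median over members moved by more than the spread between libraries in 1 of 80 cases, 48 versus 24 h in control without control 48 h replicate C (-0.38). The correlations of same-letter deviations were low, between -0.0615 and 0.135 over 15148 genes. They do not settle whether the replicate letters paired the libraries, since an effect in part of the genes could be missed. With the replicate block, genes called lower went from 17 to 141 for Arg at 48 h and from 1451 to 2075 over time in control. They went from 549 to 545 for Arg at 24 h and from 2012 to 1853 over time with Arg. Depth limited SNHG21, SNHG22, SNHG25, SNHG27, and both SNHG28 rows, which had between 0 and 94 counts over all libraries and did not pass the filter in the comparisons of 2 groups with all libraries.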

Other observations

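Newer annotation (GENCODE v44) gives an SNHG number to 4 genes that the table lists under other symbols, and these fell outside the rule. LRRC75A-AS1, now SNHG29, was more abundant in CPM than any member, at 273, 271, and 305 CPM in the 24 h control, 274, 254, and 285 CPM with Arg at 24 h, 306, 223, and 301 CPM in the 48 h control, and 242, 229, and 234 CPM with Arg at 48 h. Its log2 fold change for Arg was -0.07 ± 0.08 at 24 h and -0.24 ± 0.10 at 48 h (adjusted p = 0.330 by edgeR), with control replicate B again the lowest control library at 48 h. From 24 to 48 h it was at -0.03 ± 0.11 in control and was downregulated with Arg (-0.21 ± 0.07, adjusted p = 0.0267 by edgeR).

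C6orf48, now SNHG32, was at 0.40 ± 0.17 for Arg at 24 h (adjusted p = 0.183 by edgeR) and 0.11 ± 0.14 at 48 h, and its 24 h Arg libraries differed widely, at 30.8, 50.5, and 50.3 CPM. LINC02001, now SNHG30, was at -0.07 ± 0.19 and -0.35 ± 0.22. AC016708.1, now SNHG31, had 142 counts over all libraries.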
